A study of Mus musculus with 17 samples.

Results

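This account covers 10 genes that carry the myostatin, activin and BMP signal in muscle: 3 ligands (Mstn, Gdf5 and Gdf11), 3 receptors (Acvr2a, Acvr2b and Acvr1b), 2 secreted antagonists (Fst and Fstl3), the inhibitory Smad gene Smad7 and the BMP target gene Id1. They were chosen by gene symbol, as genes known to set muscle mass, with earlier results of these data known. Each matched 1 row among the 36172 rows of the deposited table. The muscle was the extensor digitorum longus (EDL), a leg muscle built largely of fast fibres, and its RNA was sequenced from 17 aged mice, 1 library per animal. The Hand2 group had 7 animals, 3 males (2 aged 23 months and 1 aged 22 months) and 4 females (1 aged 23 months and 3 aged 22 months). The empty vector group had 10 animals, 5 males (4 aged 23 months and 1 aged 22 months) and 5 females (3 aged 23 months and 2 aged 22 months). Hand2 encodes a helix-loop-helix transcription factor that sympathetic neurons need, and the series concerns the preservation of those neurons and of muscle in old age. The labels give neither the route, the site and the time of vector delivery nor the strain of the mice, and all animals were old, so no comparison with young muscle is possible here.

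Members of the TGF-beta family are secreted as dimers and bind a pair of type II and a pair of type I receptors. Myostatin, Gdf11 and the activins signal mainly through Acvr2a or Acvr2b with Acvr1b (ALK4) or its relative ALK5, which activate Smad2 and Smad3, and this branch restrains muscle growth. BMPs and Gdf5 act through Smad1, Smad5 and Smad9, induce the Id genes, and oppose muscle loss after denervation in mice. Follistatin (Fst) and Fstl3 bind activins and myostatin outside the cell, and Smad7 blocks type I receptors from within.

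Total estimated counts ran from 19181208 to 30942818 per library, with a median of 26091234, and 3 counts corresponded to 0.0967 to 0.157 CPM. Levels are CPM, counts scaled to library size and by the trimmed mean of M values (TMM). Hand2 itself lay between 1.02 and 26.3 CPM in the Hand2 group and between 0.0711 and 0.94 CPM in the empty vector group, without overlap. Sex-linked transcripts matched the labelled sex in all 17 animals. The 7 markers of fast skeletal muscle fibres summed to between 69652 and 87118 CPM across the libraries, so the markers of the labelled tissue were abundant, and the summed markers of sympathetic neurons did not exceed 0.551 CPM. All 10 genes passed the filter on low counts, which kept 13965 rows.

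The promoters of Mstn and Gdf11 are shown because they were the 2 members that differed between the sexes in opposite directions. Acvr1b is shown because it had the highest correlation with Mstn when sexes and vectors were pooled. On residuals from sex and vector, Fstl3 had a higher one (r = 0.705 against 0.637). Each run holds 250 bases before and 50 bases after the annotated start on the gene's strand, from RefSeq on GRCm38.p6, where 6 of the 10 members had an entry. Capitals mark E-boxes (CANNTG, a palindrome read the same on both strands), the motif bound by the basic helix-loop-helix family to which Hand2 belongs. The coordinates are chr1:53061390-53061689 on the plus strand for Mstn, chr10:128891669-128891968 on the minus strand for Gdf11, and chr15:101173822-101174121 on the plus strand for Acvr1b.
Mstn: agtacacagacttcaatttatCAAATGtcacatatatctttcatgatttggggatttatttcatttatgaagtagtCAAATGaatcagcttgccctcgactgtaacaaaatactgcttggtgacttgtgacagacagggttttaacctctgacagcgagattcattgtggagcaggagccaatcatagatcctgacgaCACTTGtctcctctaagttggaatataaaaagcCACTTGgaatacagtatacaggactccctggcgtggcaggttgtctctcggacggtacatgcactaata
Gdf11: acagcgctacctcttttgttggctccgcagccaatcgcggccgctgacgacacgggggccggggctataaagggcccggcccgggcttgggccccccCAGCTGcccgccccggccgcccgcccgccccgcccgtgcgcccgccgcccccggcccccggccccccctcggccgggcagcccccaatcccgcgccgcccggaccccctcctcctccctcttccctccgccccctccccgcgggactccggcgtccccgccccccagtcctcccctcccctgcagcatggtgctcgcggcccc
Acvr1b: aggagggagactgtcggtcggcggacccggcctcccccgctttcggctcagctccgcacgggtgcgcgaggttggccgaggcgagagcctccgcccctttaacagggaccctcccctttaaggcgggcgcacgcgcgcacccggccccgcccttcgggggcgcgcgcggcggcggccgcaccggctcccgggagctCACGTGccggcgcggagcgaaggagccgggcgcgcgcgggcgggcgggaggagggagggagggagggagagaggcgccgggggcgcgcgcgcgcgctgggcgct
The Mstn promoter held 4 E-boxes, at -229, -174, -52 and -19 from the start, while Gdf11 held 1 at -153 and Acvr1b 1 at -54. Of the other members with an entry, Fstl3 held 3 E-boxes, and Acvr2a and Acvr2b held 0 each. At least 1 E-box occurred in 72.3% of 32851 mouse promoters of the same length, and the median was 1 per promoter. The share of promoters with 4 or more was not counted. A TATA box (TATAAA, both strands) was present once in Mstn and once in Gdf11, against 13.6% of all promoters. The short Smad-binding element CAGAC (both strands) occurred at 2 places in Mstn and at none in Gdf11 or Acvr1b, and 49.6% of all promoters held it. The BMP-responsive GC box GGCGCC occurred at 1 place in Acvr1b and at none in Mstn or Gdf11, and 11.9% of all promoters held it. Base composition differed, with a GC content of 41.3% in Mstn, 80.7% in Gdf11 and 79.7% in Acvr1b, beside a median of 52.7% over all promoters. These are matches of letters in a window and no measure of binding.

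Per kilobase of transcript, the ligand Mstn was the most abundant of the 10 and the BMP ligand Gdf5 the least. Mean levels over the 17 animals were 27.6 ± 11.0 CPM per kb for Mstn (SD, n = 17), 19.7 ± 9.15 for the type I receptor Acvr1b and 17.02 ± 7.98 for Id1. The type II receptor Acvr2a followed with 6.39 ± 1.10 CPM per kb, then Smad7 with 4.16 ± 0.885 and Fst with 2.93 ± 0.868. Fstl3 had 1.45 ± 0.414 and Gdf11 1.40 ± 0.506 CPM per kb. The second type II receptor, Acvr2b, had 0.595 ± 0.131 CPM per kb, below Acvr2a in every animal, and Gdf5 had 0.535 ± 1.10 CPM per kb. The ranges over animals overlapped for all 9 pairs of neighbours in this order. Animal by animal, Id1 lay above Acvr2a, Fst above Fstl3 and Gdf11 above Acvr2b in all 17. Smad7 lay above Fst in 16 animals, Mstn above Acvr1b and Acvr2a above Smad7 in 15, and Acvr2b above Gdf5 in 14. Fstl3 lay above Gdf11 in 11 animals and Acvr1b above Id1 in 9, so these neighbours changed places from animal to animal. When the union of annotated exons was used as length, an alternative added after the data were seen, the order of the last 4 changed to Gdf11, Fstl3, Gdf5 and Acvr2b, and Fst moved to 1.81 CPM per kb.

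**Figure D1:**
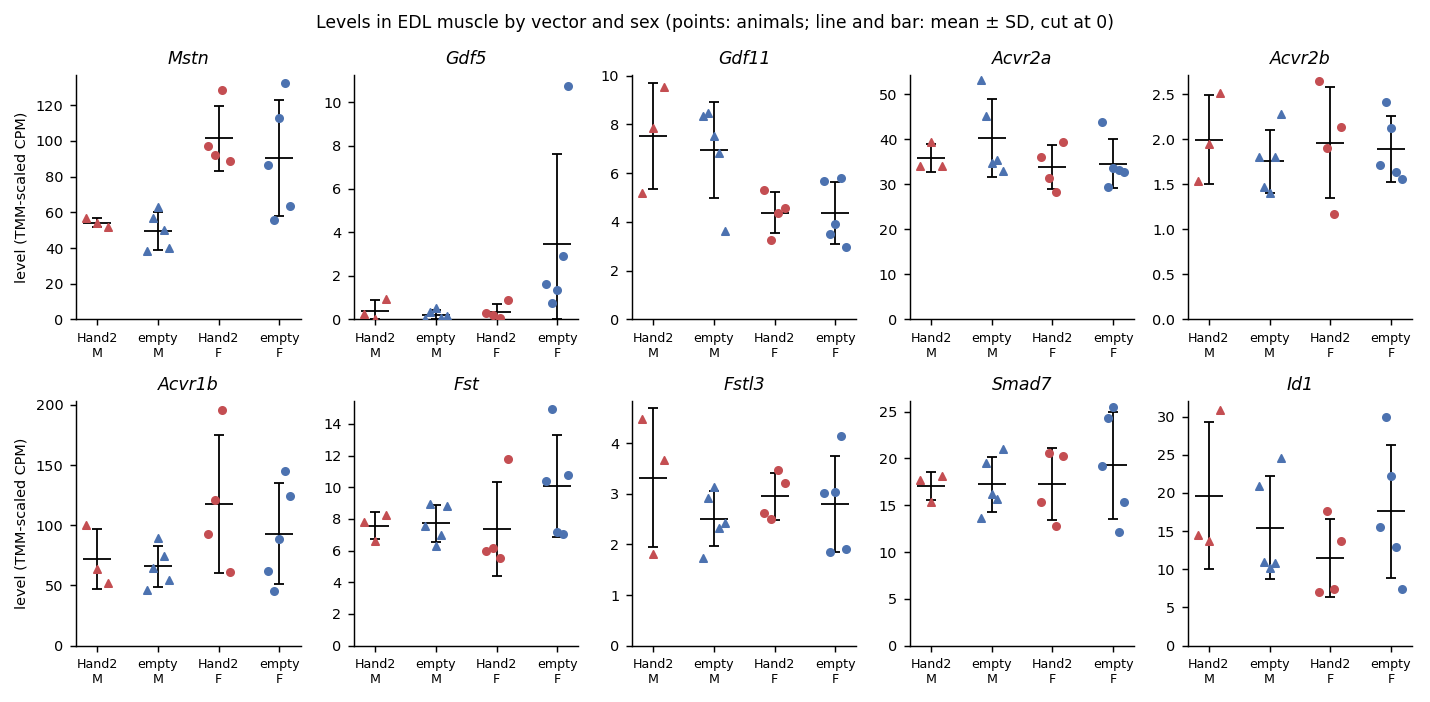
TMM-scaled CPM of the 10 genes in each animal, with 1 panel per gene and the 4 vector-by-sex groups on the x axis (triangles, males; circles, females; red, Hand2 vector; blue, empty vector; line and bar, mean ± SD with the bar stopped at 0). Mstn lies between 38.5 and 63.2 CPM in males and between 55.9 and 133 CPM in females, and 1 empty vector female has 10.7 CPM of Gdf5, above all other animals.

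The first question was whether the Hand2 vector changed these genes in muscle, with sex taken into account. None of the 10 genes was called: at a 5% false discovery rate edgeR's quasi-likelihood test called 0 of 10, where 0.00% of all 13965 rows were called. DESeq2 also called 0 of the 10, beside 0.00716% of all rows, and so did limma-voom with quality weights, beside 0.00%. At an unadjusted p under 0.05 the count was 0 of 10 in edgeR, beside 5.05% of all rows, and 1 of 10 in limma-voom, Gdf5, beside 6.04%. The log2 fold changes of the 9 genes other than Gdf5 lay between -0.26 and 0.25. A miss of the threshold does not show equal levels, and the 95% intervals give the sizes that these animals leave possible.

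Mstn, which encodes myostatin, the secreted restraint on muscle mass, had lowest, median and highest levels of 52.0, 88.7 and 128 CPM in the Hand2 group and 38.5, 59.9 and 133 CPM in the empty vector group. The groups overlapped over nearly their whole ranges. Its log2 fold change was 0.15 ± 0.16 (SE, 95% interval -0.19 to 0.49, edgeR adjusted p = 0.935), a fold of 1.11 with an interval of 0.874 to 1.41. Because these are whole-muscle samples, fewer cells of a type and less RNA per cell cannot be told apart, here or in any value below.

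Gdf11, the closest relative of myostatin, averaged 5.72 ± 2.18 CPM in Hand2 animals (SD, n = 7) and 5.66 ± 2.08 CPM in empty vector animals (SD, n = 10). Its log2 fold change of 0.053 ± 0.18 had an interval of -0.33 to 0.44, and its sign turned in limma-voom (-0.038), a difference within the SE.

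None of the receptors was called either. Acvr2a, the more abundant type II receptor, averaged 34.7 ± 4.02 CPM in Hand2 animals and 37.4 ± 7.46 CPM in empty vector animals, a log2 fold change of -0.095 ± 0.10 with an interval of -0.31 to 0.12. This was the narrowest interval among the 10 genes. Acvr2b had 1.98 ± 0.520 CPM in Hand2 animals and 1.82 ± 0.343 CPM in empty vector animals, a log2 fold change of 0.11 ± 0.17. The type I receptor Acvr1b spread widely, from 52.5 through a median of 92.8 to 196 CPM in Hand2 animals and from 45.1 through 69.7 to 145 CPM in empty vector animals. Its log2 fold change was 0.25 ± 0.27 (interval -0.33 to 0.82). It was -0.49 in the 23-month animals alone and 1.21 in the 22-month animals alone, and neither was called (edgeR adjusted p = 0.647 and 0.262). The row of Acvr2a overlaps Orc4 (22.9 CPM) on the opposite strand, and since the use of strand in counting is not given, reads of the shared bases cannot be assigned.

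Among the secreted antagonists, Fst had 7.45 ± 2.14 CPM in Hand2 animals and 8.89 ± 2.60 CPM in empty vector animals, a log2 fold change of -0.26 ± 0.18 with an interval of -0.63 to 0.11. Fstl3 had 3.11 ± 0.880 CPM in Hand2 animals and 2.65 ± 0.742 CPM in empty vector animals, a log2 fold change of 0.23 ± 0.20 with an interval of -0.18 to 0.64. Smad7, the feedback inhibitor of type I receptors, stood at 17.2 ± 2.83 CPM in Hand2 animals and 18.3 ± 4.43 CPM in empty vector animals, with a log2 fold change of -0.094 ± 0.14. Id1, a target of BMP-activated Smads that blocks helix-loop-helix factors, had 14.98 ± 7.97 CPM in Hand2 animals and 16.5 ± 7.43 CPM in empty vector animals. Its log2 fold change of -0.17 ± 0.33 had an interval of -0.87 to 0.54, the widest after Gdf5.

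Gdf5, a BMP-family ligand that mouse muscle raises after denervation, was scarce and had the largest vector estimate of the 10. In Hand2 females it measured 0.272, 0.211, 0.0649 and 0.875 CPM, and in empty vector females 1.64, 0.744, 1.35, 2.93 and 10.7 CPM. Of the 4 Hand2 females, 3 lay below all 5 empty vector females, and 1 Hand2 female lay above the lowest of them. In Hand2 males it measured 0.236, 0 and 0.942 CPM, and in empty vector males 0, 0.343, 0.509, 0.0859 and 0.140 CPM, where the ranges overlapped. These levels rest on 34 estimated counts over all Hand2 females and 472 over all empty vector females, and on 24 over Hand2 males and 29 over empty vector males.

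Within females the log2 fold change of Gdf5 was -3.39 ± 0.98 (95% interval -5.47 to -1.31), with an unadjusted p = 0.00342 and an edgeR adjusted p = 0.783, so it was not called. None of the other 9 genes reached an unadjusted p under 0.05 in females, and 0 of 10 were called there, beside 0.00% of all rows and 5.90% at an unadjusted p under 0.05. DESeq2 called 0 of the 10 in females, beside 0.0501% of all rows, and limma-voom 0 of 10, beside 0.00%. Without empty vector replicate 5, the female with 10.7 CPM, the log2 fold change was -2.31 (unadjusted p = 0.013), and without empty vector replicates 3, 4 and 5, the 3 females of 23 months, it was -1.84 (unadjusted p = 0.086). In all animals the fold change was -1.93 ± 0.96 (interval -3.98 to 0.11, adjusted p = 0.921), and -1.10 without empty vector replicate 5. It was also -0.58 without replicates 3, 4 and 5 and -0.66 in the 23-month animals alone, and -2.95 without Hand2 replicate 7.

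Markers of cells near muscle gave the following in the same females. Cartilage markers, listed because Gdf5 marks joint tissue, summed to between 3.44 and 6.03 CPM in Hand2 females and between 4.79 and 7.54 CPM in empty vector females, with Acan at 0 in all empty vector females. Immediate-early genes summed to between 29.9 and 164 CPM in Hand2 females and between 47.5 and 1084 CPM in empty vector females. No marker on these lists was called, and their part in the Gdf5 values was not tested.

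In males the vector comparison called 0 of 10 genes, beside 0.00% of all rows, and 0 of 10 had an unadjusted p under 0.05, beside 2.84% of all rows. DESeq2 called 0 of the 10 in males, beside 0.00716% of all rows, and limma-voom 0 of 10, beside 0.00%. The male log2 fold change of Gdf5 was 0.79 ± 1.26, on the 24 and 29 counts given above. The difference between the vector effects of the sexes, male minus female, was 4.18 ± 1.61 for Gdf5 on the log2 scale (interval 0.75 to 7.61, unadjusted p = 0.0202). It was 3.11 without empty vector replicate 5, 2.63 without Hand2 replicate 7, the male with 0.942 CPM, and 5.03 without Hand2 replicate 5. After adjustment the p in all animals was 0.9997, and 0 of 10 genes were called in that comparison, beside 0.00% of all rows (3.39% at an unadjusted p under 0.05). DESeq2 and limma-voom called 0 of 10 in it as well, each beside 0.00% of all rows. Id1 had the next largest difference, 0.96 ± 0.64, made of 0.34 ± 0.46 in males and -0.62 ± 0.44 in females. Fst in females gave -0.46 ± 0.24 (unadjusted p = 0.0689), from 6.01, 6.16, 5.51 and 11.8 CPM in Hand2 females against 10.4, 14.9, 7.15, 7.07 and 10.8 CPM in empty vector females. Of the Hand2 females, 3 lay below every empty vector female, and the other lay above 4 of them.

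**Figure D2:**
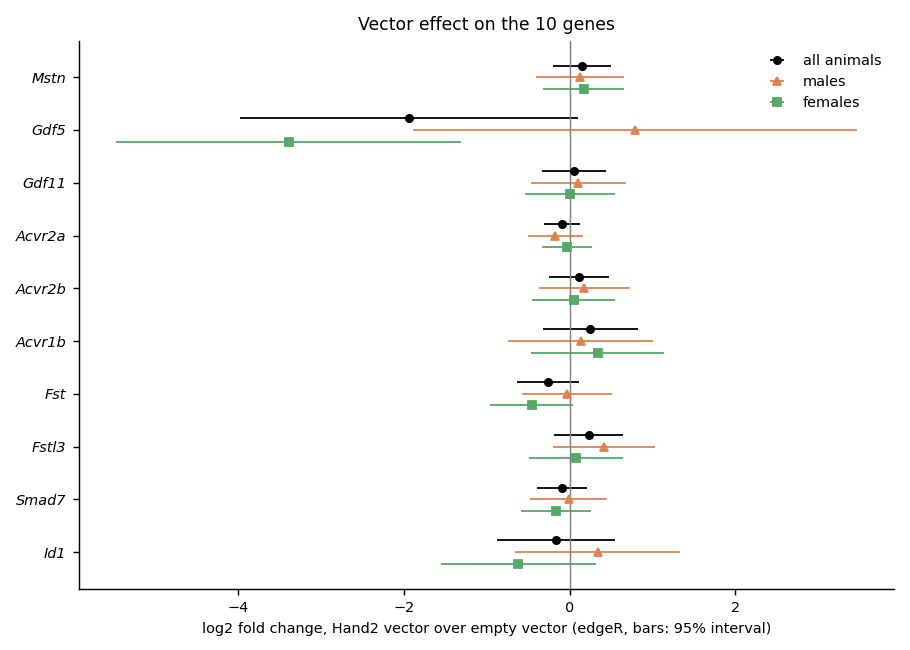
Log2 fold change of Hand2 vector over empty vector for each gene, in all animals (black), in males (orange) and in females (green). Bars are 95% intervals derived from edgeR's F statistic. Only the female interval of Gdf5, -5.47 to -1.31, leaves out 0, and its adjusted p is 0.783.

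The second question was how the sexes differ, with vector taken into account. Mstn was lower and Gdf11 higher in males, and these were the 2 of 10 genes called, 1 in each direction, where 5.63% of all 13965 rows were called (2.91% higher and 2.72% lower in males). At an unadjusted p under 0.05 there were 4 of 10, beside 21.6% of all rows. DESeq2 called 2 of the 10, beside 9.14% of all rows, and limma-voom 3 of 10 by adding Gdf5, beside 7.24%.

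Mstn measured 56.8, 54.1 and 52.0 CPM in Hand2 males and 38.5, 56.7, 63.2, 50.2 and 40.0 CPM in empty vector males. In females it measured 96.9, 91.9, 128 and 88.7 CPM with the Hand2 vector and 86.8, 55.9, 113, 133 and 63.3 CPM with the empty vector. Within the Hand2 group every male lay below every female, and within the empty vector group the ranges overlapped, since 1 female lay below 2 males. Males averaged 51.4 ± 8.47 CPM (SD, n = 8) and females 95.2 ± 26.2 CPM (SD, n = 9). The log2 fold change, male over female, was -0.88 ± 0.16 (95% interval -1.22 to -0.53, p = 6.17e-05, edgeR adjusted p = 0.00493), a fold of 0.544. The call held when any 1 of the 17 animals was left out, with adjusted p between 0.00148 and 0.0135. It was lost in the empty vector animals alone (-0.86, adjusted p = 0.165) and in single ages. Fewer animals entered these fits, and the cause of the loss was not tested.

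Gdf11 measured 5.19, 7.84 and 9.53 CPM in Hand2 males and 8.35, 8.47, 7.52, 6.83 and 3.65 CPM in empty vector males. In females it measured 5.29, 3.27, 4.38 and 4.57 CPM with the Hand2 vector and 5.67, 3.49, 3.90, 5.78 and 2.98 CPM with the empty vector. Of the 8 males, 6 lay above all 9 females, and the other two, the only males of 22 months, lay within the female range. Males averaged 7.17 ± 1.91 CPM (SD, n = 8) and females 4.37 ± 1.04 CPM (SD, n = 9). The log2 fold change was 0.72 ± 0.18 (95% interval 0.34 to 1.09, edgeR adjusted p = 0.0265), a fold of 1.64. This call was less firm than that of Mstn. It was lost when any 1 of 4 animals was left out, with adjusted p = 0.0517 without empty vector replicate 3, 0.0567 without empty vector replicate 7, 0.0531 without Hand2 replicate 6 and 0.0654 without Hand2 replicate 7. It was also lost with age as a term (0.58, adjusted p = 0.0902), in the fit without empty vector replicates 3, 4 and 5 (0.69, adjusted p = 0.101), in the empty vector animals alone (0.67, adjusted p = 0.257) and with limma on the authors' normalized values (0.70, adjusted p = 0.0562).

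The sex difference of Gdf11 lay in the 23-month animals, though the test of the difference between the ages did not pass. At 23 months males had 8.09 ± 0.922 CPM (SD, n = 6) and females 4.31 ± 1.18 CPM (SD, n = 4), without overlap, and the log2 fold change in these animals was 0.90 (edgeR adjusted p = 0.0179). At 22 months males had 4.42 ± 1.09 CPM (SD, n = 2) and females 4.42 ± 1.06 CPM (SD, n = 5), and the log2 fold change was -0.0049. The sex difference at 23 months minus that at 22 months was 0.91 ± 0.32 on the log2 scale (interval 0.23 to 1.58, unadjusted p = 0.0114), a fit added after the data were seen, and it was not called (edgeR adjusted p = 0.998; 0 of all rows were called, 0.00%, and 3.06% had an unadjusted p under 0.05). The sex difference of Mstn was -0.91 at 23 months from 52.4 ± 8.21 CPM in males and 99.3 ± 29.9 CPM in females, and -0.87 at 22 months from 48.4 ± 11.9 CPM in males and 92.0 ± 25.9 CPM in females. Neither single-age value of Mstn was called (adjusted p = 0.0566 and 0.428).

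**Figure D3:**
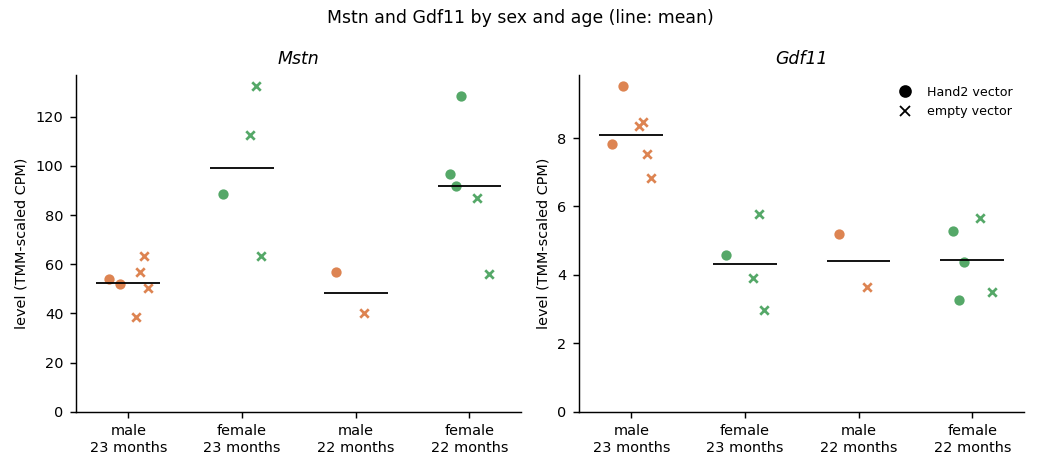
TMM-scaled CPM of Mstn (left) and Gdf11 (right) in each animal by sex and age (circles, Hand2 vector; crosses, empty vector; line, mean). For Gdf11 the 6 males of 23 months lie between 6.83 and 9.53 CPM, above every female, and the 2 males of 22 months lie among the females.

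The other 8 genes were not called between the sexes. Gdf5 had a log2 fold change of -2.62 ± 0.92 (interval -4.57 to -0.67, edgeR adjusted p = 0.110), from 0.282 ± 0.319 CPM in males (SD, n = 8) and 2.09 ± 3.36 CPM in females (SD, n = 9). It was called with limma-voom (-2.92, adjusted p = 0.0416) and without Hand2 replicate 7 (-3.56, adjusted p = 0.0274), and gave -1.76 without empty vector replicate 5 (adjusted p = 0.181). Acvr1b had 68.2 ± 18.9 CPM in males and 103.9 ± 47.8 CPM in females, a log2 fold change of -0.58 ± 0.27 (interval -1.15 to -0.010, adjusted p = 0.223). The type II receptors gave 0.17 ± 0.10 for Acvr2a and -0.054 ± 0.17 for Acvr2b on the log2 scale. Fst gave -0.21 ± 0.17, Fstl3 -0.021 ± 0.19, Smad7 -0.10 ± 0.14 and Id1 0.21 ± 0.33 on the same scale.

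Fibre-type and fat markers moved with sex in the same libraries. All 3 slow-fibre markers were lower in males, with summed levels of 34.2 to 138 CPM in males and 140 to 787 CPM in females. Of 3 adipocyte markers, 2 were lower in males, with sums of 7.63 to 26.8 CPM in males and 16.2 to 60.1 CPM in females. The 7 fast-fibre markers summed to between 72677 and 87118 CPM in males and between 69652 and 83145 CPM in females, and none was called. The part of these markers in the sex differences of Mstn and Gdf11 was not tested.

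The rest of the pathway was read from 94 further genes, of which 80 passed the filter. Of the 94, 3 are listed at 0 in all animals, among them Bmpr2, the BMP type II receptor that most cells use, so for it the table gives no level. In the comparison of vectors 0 of 80 were called in edgeR, DESeq2 and limma-voom, beside 0.00%, 0.00716% and 0.00% of all rows. The median log2 fold change of the 80 was -0.022, beside -0.0041 over all rows. Of the 80, 3 had an unadjusted p under 0.05, or 3.75%, below the 5.05% of all rows. They were Bmp1, a protease that frees myostatin and BMPs from their inhibitors (0.30 ± 0.12), the activin A subunit gene Inhba (0.45 ± 0.19) and the BMP ligand gene Bmp7 (0.50 ± 0.23), each with an adjusted p = 0.921. Inhba had 1.21 ± 0.244 CPM in Hand2 animals (SD, n = 7) and 0.898 ± 0.287 CPM in empty vector animals (SD, n = 10). The BMP-induced genes Id2, Id3 and Id4 gave -0.20 ± 0.15, -0.024 ± 0.19 and 0.0051 ± 0.21 on the log2 scale. Smad6, the inhibitory Smad of the BMP branch, gave -0.086 ± 0.18, and the ligand genes Inhbb and Bmp4 gave 0.30 ± 0.18 and 0.031 ± 0.14.

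Between the sexes 7 of the 80 were called, 3 higher and 4 lower in males (8.75% of the 80, beside 5.63% of all rows), and the median log2 fold change was -0.018 beside 0.00058 over all rows. Higher in males were Hfe2, Bmper and Gdf1. Hfe2, which encodes hemojuvelin, a muscle-rich BMP co-receptor, had 1031 ± 48.6 CPM in males (SD, n = 8) and 831 ± 74.2 CPM in females (SD, n = 9), without overlap, and a log2 fold change of 0.31 ± 0.052 (edgeR adjusted p = 0.00159). Bmper, a secreted regulator of BMPs, had 3.66 ± 1.31 CPM in males and 1.91 ± 0.376 CPM in females (0.95 ± 0.20, adjusted p = 0.00808). Its call was lost in the 23-month animals alone (0.84, adjusted p = 0.102) and in the 22-month animals alone (1.05, adjusted p = 0.307). It was also lost with the replicate block described below (0.73, adjusted p = 0.157). Gdf1, a ligand of the family, had 39.4 ± 6.42 CPM in males and 28.7 ± 6.18 CPM in females (0.45 ± 0.12, adjusted p = 0.0400). The Gdf1 row shares its bases with rows of Lass1, which are listed at 0, and overlaps Upf1 (91.2 CPM) on the other strand, so its level is uncertain.

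Lower in males were the ligand gene Tgfb3, the membrane protein gene Igsf1 and 2 genes on the list of Smad targets. Tgfb3 had 55.1 ± 4.46 CPM in males and 69.8 ± 5.86 CPM in females, with ranges of 49.3 to 63.2 and 62.7 to 81.5 CPM, and a log2 fold change of -0.35 ± 0.054 (edgeR adjusted p = 0.000675). Igsf1 had 2.64 ± 0.630 CPM in males and 4.78 ± 1.34 CPM in females (-0.86 ± 0.18, adjusted p = 0.00766). Cdkn1a, which encodes the cell-cycle inhibitor p21 and answers to many signals besides Smads, had 53.8 ± 36.9 CPM in males and 140.2 ± 53.2 CPM in females (-1.39 ± 0.30, adjusted p = 0.0148). Atoh8, a helix-loop-helix factor, had 8.55 ± 1.56 CPM in males and 22.1 ± 15.5 CPM in females (-1.33 ± 0.33, adjusted p = 0.0320). Hfe2, Bmper, Tgfb3, Cdkn1a and Igsf1 were called with any 1 of the 17 animals left out. Atoh8 was called in 7 of those 17 fits and lost without empty vector animal 3, 5, 6, 7, 8 or 9 or Hand2 animal 1, 3, 6 or 7 (adjusted p 0.0502 to 0.0673). Its log2 fold change was -0.52 without empty vector replicates 3, 4 and 5 (adjusted p = 0.218), -1.83 in the 23-month animals alone (adjusted p = 0.0530) and -0.31 in the 22-month animals alone (adjusted p = 0.980). Gdf1 was called in 6 and lost without any of empty vector animals 2 to 7 or Hand2 animals 1, 2, 3, 6 or 7 (adjusted p 0.0506 to 0.0836). It gave 0.53 in the 23-month animals and 0.23 in the 22-month animals, both uncalled. Without empty vector replicates 3, 4 and 5 it gave 0.33 (adjusted p = 0.250), and with age as a term 0.42 (adjusted p = 0.0905). Cdkn1a lost its call without empty vector replicates 3, 4 and 5 (-1.13, adjusted p = 0.131) and in the 23-month animals alone (-1.51, adjusted p = 0.173). It was also lost with the replicate block described below (-1.63, adjusted p = 0.101). Igsf1 was not called in the 23-month animals alone (-0.84, edgeR adjusted p = 0.0663) or the 22-month animals alone (-0.81, adjusted p = 0.781). Hfe2 and Tgfb3 were not called at 22 months alone (adjusted p = 0.854 and 0.410). Atoh8 was also lost with limma-voom (adjusted p = 0.0585) and with the replicate block (-1.30, adjusted p = 0.114). Of 31 alternative settings, Hfe2 was called in 30, Tgfb3 in 29, Igsf1 in 28, and Cdkn1a and Bmper each in 27. Atoh8 was called in 13 and Gdf1 in 12.

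Of the remaining ligands named for this pathway, Bmp4 had 7.37 ± 1.38 CPM in males and 9.80 ± 2.04 CPM in females (-0.41 ± 0.14, edgeR adjusted p = 0.0855) and was called with DESeq2 (adjusted p = 0.0364) and limma-voom (adjusted p = 0.0437). Bmp7 gave -0.56 ± 0.23, Inhba 0.35 ± 0.19 and Inhbb -0.29 ± 0.18, none of them called. Id2, Id3 and Id4 gave 0.055 ± 0.15, 0.084 ± 0.18 and 0.18 ± 0.20, and Smad6 gave 0.097 ± 0.18, and none of these, nor Id1, was called.

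**Figure D4:**
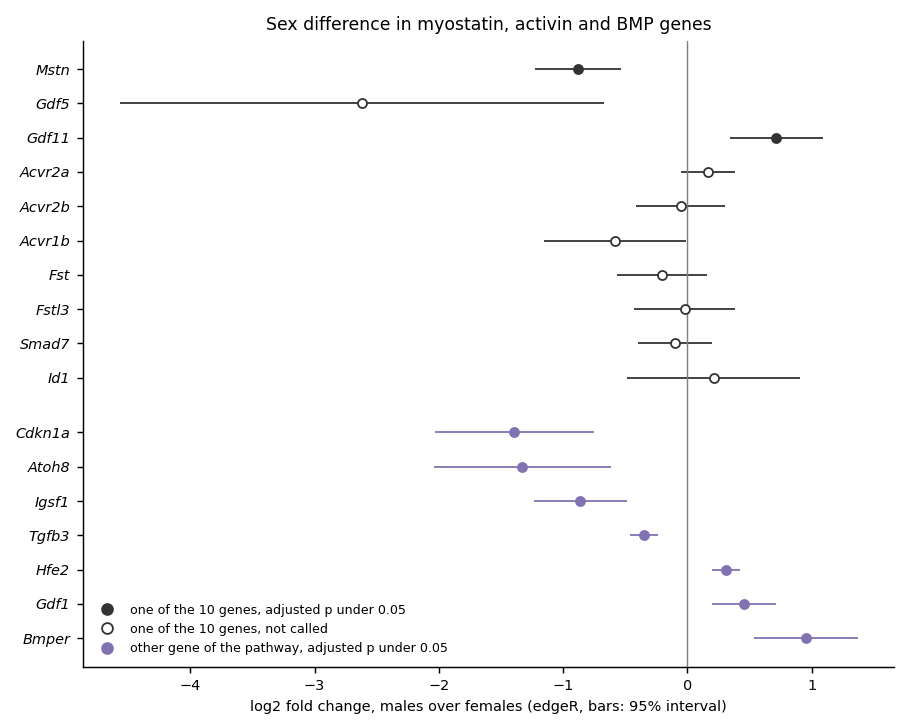
Log2 fold change of males over females, with 95% intervals derived from edgeR's F statistic. The 10 genes are filled where the adjusted p is under 0.05 and open where it is not. Also shown are the 7 further genes of the pathway that were called. Mstn lies at -0.88 and Gdf11 at 0.72, and the interval of Gdf5 runs from -4.57 to -0.67.

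Across the 17 animals, the levels of the 10 genes were compared pair by pair on log2 CPM, in 45 pairs. An unadjusted permutation p under 0.05 was found for 11 pairs by Pearson's r, and 0 pairs passed after Benjamini-Hochberg adjustment. These values pool both sexes and both vectors, and the permutations shuffled animals across them. On the pooled values the closest pair was Mstn with its type I receptor gene Acvr1b. It had r = 0.709 (permutation p = 0.00141, adjusted 0.0635) and Spearman's rho = 0.716 (permutation p = 0.00188, adjusted 0.0511). Without the 2 animals farthest from the median of Mstn, or of Acvr1b, r was 0.518. The relation had the same sign within both sexes, with r = 0.762 in males (n = 8) and 0.628 in females (n = 9). On residuals from sex and vector its r was 0.637, and it was no longer the closest pair. There Acvr2b with Acvr1b (-0.752), Mstn with Fstl3 (0.705) and Acvr1b with Fst (-0.696) were larger in size. So were Mstn with Fst (-0.690) and Acvr1b with Id1 (-0.640). Acvr1b and Id1 ran in opposite directions, with r = -0.653 (permutation p = 0.00483, adjusted 0.109), and rho = -0.679 (permutation p = 0.00371, adjusted 0.0557). Without the 2 animals farthest from the median, r was -0.619 by the median of Acvr1b and -0.541 by that of Id1. In males r was -0.697 and in females -0.636. Gdf11 and Acvr2a gave r = 0.605 (permutation p = 0.00858, adjusted 0.115), and rho = 0.699 (permutation p = 0.00227, adjusted 0.0511). Without the 2 farthest animals, r was 0.712 by the median of Gdf11 and 0.455 by that of Acvr2a.

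The tested rows whose log2 CPM was most like that of each gene over the 17 animals were also listed, as a description with no test, since the best of 13965 rows is always high and all rows share libraries and depth. For Mstn they were Gpc6 (Pearson's r = 0.946), Igfn1 (0.921) and Sdk1 (0.901), and for Gdf11 Srcin1 (0.891), Pla2g7 (0.891) and B4galt2 (0.882). These values pool both sexes and both vectors. On residuals from sex and vector, r was 0.844, 0.773 and 0.709 for the rows of Mstn and 0.797, 0.810 and 0.855 for those of Gdf11. For Gdf5 the most alike rows were Orm1 (0.893), Wwox (0.841) and Tubb6 (0.838). Among the receptors, Acvr2a was most like Slc16a10 (0.937) and Cpeb2 (0.924), Acvr2b most like Ahi1 (0.824), and Acvr1b most like Pfkfb4 (0.951), Rtn4rl2 (0.929) and Net1 (0.929). Fst was most like Colq (0.895) and Wdr1 (0.835), and Fstl3 most like Tgfbi (0.802). Smad7 was most like Dcakd (0.798), then Id3 (0.796), and Id1 was most like Dlc1 (0.875), with the BMP type I receptor gene Acvrl1 in the third place (0.849).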

How the data were processed

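Per the labels' protocols, EDL muscle libraries were prepared by Illumina TruSeq v2. Per the submitters' processing notes the build was mm10. Aligner and counter were not given in the sources used here, nor was strand use. The authors deposited estimated counts per RefSeq gene, unscaled, of which 25.5% to 29.3% of the values above 0 were whole within 0.001. They also deposited normalized log2 values, used here only as an alternative.

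Counts were rounded, filtered with filterByExpr (13965 of 36172 rows kept; 16061 were 0 in all animals) and TMM-scaled. The robust quasi-likelihood test of edgeR 4.0.16 was run in R 4.3.3 with vector and sex as terms, or 4 vector-by-sex groups for effects within a sex. P-values were Benjamini-Hochberg adjusted over all rows at 5%. Each library is 1 animal, and no pair agreed within sampling noise (smallest mean chi-square 6.94). The code was tested on simulated counts. DESeq2 1.42.0 and limma 3.58.1 (voom) were alternatives. For correlations, 2 was the prior count of the log2 CPM, with 100000 permutations. Transcript length was that of the longest transcript tied to a RefSeq record.

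The 10 genes, the pathway lists and the markers were chosen with earlier results of these data known, and 1 gene of the pathway lists is not reported here. Named were all 10 genes, pathway genes called between vectors or sexes (up to 8 in each direction, or the 3 of smallest p), Id2, Id3, Id4, Smad6, Inhba, Inhbb, Bmp4 and Bmp7 whatever their p, and up to 3 most alike rows per gene. Intervals cover the spread between animals and counting error, and libraries carried no molecular identifiers.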

Additional observations from a re-analysis of the deposited data

Results flagged for a closer look

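In 50 groups of 4 to 10 animals, the highest or lowest animal was compared with the others on CPM. These were the 10 genes in the Hand2 group, the empty vector group, Hand2 females, empty vector females and empty vector males. An animal far from the rest was found in 4 groups, where chance gives about 2.5, 1 in 20. That number is a rough guide, since the groups shared animals and CPM was not log-transformed. Gdf5 stood at 10.73 CPM in empty vector replicate 5, a female of 23 months, and the next animal had 2.933 CPM. That animal was marked both in the whole empty vector group and among empty vector females. Fst stood at 14.93 CPM in empty vector replicate 2, a female of 22 months, and the next of the empty vector animals had 10.76 CPM. Among Hand2 females, Fst stood at 11.76 CPM in replicate 5, the one Hand2 female of 23 months, and the next had 6.159 CPM.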

How the results depend on the processing

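Over all settings, 1966 single-gene values kept their sign and their side of the threshold, 122 changed sign, 62 lost a call and 4 gained one. Of the values that changed sign, only Gdf11 between the sexes was called in the main edgeR fit. Its sign changed in the 22-month animals alone (-0.0049), where it was not called. The number of the 10 genes called between the sexes, 2, was 1 with the age term, 1 without empty vector replicates 3, 4 and 5, 1 in 23-month animals alone, 0 in 22-month animals alone, 0 in empty vector animals alone, 1 with limma on the authors' normalized values, and 1 to 2 with 1 replicate left out. The pathway count between the sexes, 7, was 4 without empty vector replicates 3, 4 and 5, 2 at 23 months, 1 at 22 months, 1 in empty vector animals alone, 3 with the replicate block below and 5 to 8 with 1 replicate left out. Over all rows the sex comparison called 786 in edgeR, 1276 in DESeq2, 530 with the age term, 551 with limma on the authors' normalized values, 291 without replicates 3, 4 and 5, 413 at 23 months, 24 at 22 months and 118 in empty vector animals alone. Fewer animals entered the last 4 fits, and their make-up by vector, sex or age differed as well. The cause of these changes was not tested for any of the fits. The vector comparison in females called 0 rows in edgeR and 7 in DESeq2, and in males 0 and 1. Replicate numbers here follow accession order and pair nothing. The titles carry numbers of their own, and 11 pairs of animals of different groups had the same number in the title. In 2 of these pairs the deviations from the group means correlated over 0.1 (range over the pairs -0.0916 to 0.141). Pairs with unlike numbers were not compared, so these values cannot show whether such animals share more than the number in the title. A fit with that number as a replicate block, added after the data were seen, called 2 of the 10 genes and 282 of all rows between the sexes and 0 of either between the vectors. In it the vector values of Gdf11 (-0.22), Fstl3 (-0.042), Id3 (0.0060) and Id4 (-0.37) and the sex value of Id2 (-0.10) changed sign.

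Log2 fold changes that changed sign were as follows. With limma-voom they were Gdf11 -0.038, Id3 0.014 and Id4 -0.094 (vector), Fstl3 -0.0084 (vector, females), Gdf5 -0.46 and Gdf11 -0.0012 (vector, males), and Mstn 0.016 and Gdf11 -0.0063 (male minus female effect). With upper-quartile scaling they were Fstl3 0.0080 (sex) and Smad7 0.00078 (vector, males). With the age term Acvr2a was 0.0032 (vector, females). Without empty vector replicates 3, 4 and 5 they were Fstl3 0.11, Id3 -0.062 and Smad6 -0.036 (sex), and Gdf11 -0.077 and Acvr2b -0.075 (vector, females). At 22 months they were Acvr2b -0.25 and Id4 -0.10 (vector), and Gdf11 -0.0049, Acvr2a -0.021, Fstl3 0.36, Smad7 0.043, Id4 -0.19 and Smad6 -0.22 (sex). At 23 months they were Mstn -0.060, Acvr1b -0.49, Fst 0.19, Smad7 0.097, Id1 0.48, Bmp4 -0.27, Id2 0.023, Id3 0.26, Inhbb -0.10 and Smad6 0.35 (vector), and Id2 -0.11 (sex). The 22-month vector values of these genes were Mstn 0.54, Acvr1b 1.21, Fst -0.84, Smad7 -0.37, Id1 -0.99, Bmp4 0.44, Id2 -0.55, Id3 -0.50, Inhbb 0.87 and Smad6 -0.66, none called. In empty vector animals alone Id1 was -0.18 and Id2 -0.11 (sex). Without sex as a term Id4 was -0.00022 (vector). On the authors' normalized values Id3 was 0.0093 (vector) and Smad7 0.0030 (vector, males).

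With 1 replicate left out, the vector values spanned -0.036 to 0.13 for Gdf11, -0.017 to 0.10 for Bmp4, -0.10 to 0.074 for Id3, -0.096 to 0.099 for Id4 and -0.17 to 0.020 for Smad6. In females they spanned -0.020 to 0.56 for Acvr1b, -0.11 to 0.068 for Acvr2a, -0.13 to 0.24 for Acvr2b, -0.036 to 0.26 for Fstl3 and -0.11 to 0.13 for Gdf11. In males they spanned -0.18 to 0.32 for Acvr1b, -0.016 to 0.34 for Acvr2b, -0.094 to 0.059 for Fst, -0.099 to 0.32 for Gdf11, -0.75 to 1.38 for Gdf5, -0.14 to 0.57 for Id1 and -0.083 to 0.071 for Smad7. The male minus female effects spanned -0.52 to 0.15 for Acvr1b, -0.068 to 0.31 for Acvr2b, -0.10 to 0.31 for Gdf11 and -0.22 to 0.093 for Mstn. Between the sexes they spanned -0.13 to 0.0095 for Acvr2b, -0.14 to 0.090 for Fstl3, -0.013 to 0.39 for Id1, -0.047 to 0.13 for Id2 and -0.041 to 0.19 for Id3. The sex difference at 23 months minus that at 22 months spanned -0.19 to 0.15 for Mstn and 0.70 to 1.15 for Gdf11. Gdf5 did not pass the stricter filter and has no value there, and its depth, 0 to 0.942 CPM in males, limits what can be seen of it.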
